A study of Mus musculus with 3 samples.

Results

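Latent transforming growth factor β (TGF-β) and the proteins that store it were examined in ribosome-associated RNA of the mouse heart endothelium. The 9 genes were the latent TGF-β binding proteins Ltbp1, Ltbp2, Ltbp3 and Ltbp4, the growth factors Tgfb1, Tgfb2 and Tgfb3, the cell surface anchor Lrrc32 and the microfibril gene Fbn1. They were taken from the deposited table by gene symbol, and all 9 were found among its 17583 genes. The set was chosen by the measured level of Ltbp4, which is among the 10 genes with the highest mean, so levels are given as a description, with no test. The RNA came from hearts of 3 EC-RiboTag mice of the genotype Cdh5-CreERT2;Rpl22tm1.1Psam on a C57BL/6 background, for which the methods give a range of adult ages but no age of these animals. Tamoxifen activates a Cre recombinase driven by the Cdh5 promoter, which is active in endothelial cells, and Cre switches Rpl22 to a ribosomal protein with a hemagglutinin tag that was used for immunoprecipitation. According to the labels the hearts were taken 7 days after coronary ligation, whereas the RiboTag methods name no infarction. The titles carry the letters Rz, and the study writes RZ for the remote zone, the heart muscle away from the infarct, which it also dissected from infarcted EC-RiboTag hearts. The labels name only the heart as the source, so whether the levels are those of the remote zone or of whole hearts is not settled. All 3 libraries belong to 1 condition. An input or control library was not analysed here, and no value is therefore an enrichment over heart tissue.

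TGF-β is made as a precursor, cut by a furin-type protease, and kept inactive because its propeptide stays wrapped around the growth factor. In most tissues this small latent complex is bound through the propeptide to an LTBP, which places it on fibrillin microfibrils and other matrix fibres, whereas LRRC32 (GARP) holds latent TGF-β on the surface of platelets, regulatory T cells and endothelial cells. Integrins with an αv subunit bind an arginine-glycine-aspartate motif in the propeptide and pull the growth factor free.

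The coding sequence of this integrin motif sets Tgfb2 apart from Tgfb1 and Tgfb3 and is shown for that reason, read from the canonical GENCODE transcripts on GRCm39. Each stretch lies in exon 5 of 7, in the coding sequence, and is written 5′ to 3′ on the strand of the gene. The capitals mark the codons for arginine, glycine and aspartate, which occur in frame once in Tgfb1, from codon 244, and once in Tgfb3, from codon 261.
Tgfb1, chr7:25396558-25396587, plus strand: cccaaacgtCGGGGCGACctgggcaccatc
Tgfb3, chr12:86108927-86108956, minus strand: gaccatggcCGTGGAGACctggggcgtctc
Tgfb2, chr1:186362938-186362967, minus strand: acatatgccAGTGGTGATcagaaaactata
In Tgfb2 the capitals mark the 3 codons at the aligned position, which do not spell the motif, and the motif was found nowhere in frame in the canonical transcript of Tgfb2. Of the other members, Fbn1 held it once and the 4 Ltbp genes and Lrrc32 held none. The stretch where furin-type proteases cut is also in exon 5 of each gene, and there all 3 genes carry a run of codons for basic residues, shown in capitals.
Tgfb1, chr7:25396651-25396680, plus strand: cacagctcaCGGCACCGGAGAgccctggat
Tgfb2, chr1:186362824-186362853, minus strand: tccagccggCGGAAGAAGCGCgctttggat
Tgfb3, chr12:86108819-86108848, minus strand: ggcagtcagAGGAAGAAGAGGgccctggac

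The unit of the table is the normalized count, a read count divided by a size factor of the library and rounded to a whole number. Gaps and peaks that rounding left among low values gave a worth of 0.961 to 1.06 normalized counts per read, so that the libraries differed little in depth. The median of all gene means was 237. All 12 endothelial markers lay above it, with Flt1 the highest at 4919 and Cldn5 the lowest at 1004, and their summed level ran from 27593 to 28759 over the 3 mice. Markers of other cells were also present. The summed level ran from 20679 to 24237 for 10 cardiomyocyte genes (Ttn the highest, Tnni3 the lowest), from 3343 to 4637 for 10 fibroblast genes (Dcn the highest, Tcf21 the lowest), from 1756 to 2512 for 10 mural cell genes (Rgs5 the highest, Cnn1 the lowest) and from 589 to 846 for the 8 listed of 10 leukocyte genes (Lyz2 the highest, Cd79a the lowest). Cd3e and S100a8 of the leukocyte list were not in the table. Every gene in the table reached at least 4 in some mouse, so that no listed marker could be at 0 in every mouse. In such bulk RNA, fewer cells of a type and less RNA per cell cannot be told apart.

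Ltbp4 was the highest of the 9 genes. Per kilobase of the Ensembl canonical transcript, the scale used here between genes because a long transcript yields more reads per molecule, it had 842 ± 12.5 normalized counts (SD, n = 3), against 149 or less for each of the other LTBP genes. This gene (ENSMUSG00000040488; GRCm39 chr7:27004561-27037117, minus strand), whose product binds TGF-β1 and is known for its part in elastic fibre assembly, had normalized counts of 3983 in mouse 1, 4033 in mouse 2 and 3915 in mouse 3, a mean of 3977 ± 59.2 (SD, n = 3). The mice were nearly equal, and Ltbp4 ranked 9, 8 and 16 of all genes in them and 10 by mean. On either side of the limit of 10 stood Ltbp4 itself and Nrp2, at rank 11 with 3897 ± 229 (SD, n = 3). The genes whose normalized counts were most like those of Ltbp4 over the 3 mice, by the root mean square difference of log2 values, were Qki (0.050), Nrp2 (0.078) and Tcf4 (0.082). Because the likeness includes the level, these are genes of similar height, and nothing about shared function was tested.

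The other LTBP genes were lower and differed among themselves, with means per kilobase of 149 for Ltbp1, 101 for Ltbp3 and 15.8 for Ltbp2. Ltbp1 (ENSMUSG00000001870; chr17:75312563-75699507, plus strand), the founding member of the family, had 894, 715 and 887 in mice 1, 2 and 3, a mean of 832 ± 101 (SD, n = 3). Ltbp3 (ENSMUSG00000024940; chr19:5790932-5808560, plus strand), which also carries latent TGF-β, had 404, 513 and 719, a mean of 545 ± 160.0 (SD, n = 3). Mouse 1 was the lowest and mouse 3 the highest, at 1.78 times mouse 1. Ltbp2 (ENSMUSG00000002020; chr12:84829986-84923306, minus strand), a microfibril protein that does not bind latent TGF-β, had 40, 205 and 76, a mean of 107 ± 86.8 (SD, n = 3). By normalized count it was the only 1 of the 9 members with a mean below the median of all genes. Per kilobase, Tgfb2 with 58.3 was also below the median of 73.0, and 7 of the 9 lay above it. In Ltbp2, mouse 2 was 5.12 times mouse 1. The implied reads were 41, 193 and 79, and the exact 95% Poisson intervals on the normalized scale, which cover counting error only, were 28.7 to 54.3, 177 to 236 and 60.1 to 94.6. The interval of mouse 2 lies above the others. Without mouse 2 the mean of Ltbp2 was 58.0.

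Among the growth factors Tgfb1 led, with a mean per kilobase of 615 against 141 for Tgfb3 and 58.3 for Tgfb2. Tgfb1 (ENSMUSG00000002603; chr7:25386427-25404502, plus strand), the isoform best known in fibrosis and vascular biology, had 1340, 1397 and 1347 in mice 1, 2 and 3, a mean of 1361 ± 31.1 (SD, n = 3), and ranked 953. Tgfb3 (ENSMUSG00000021253; chr12:86103519-86125815, minus strand), which is known for its role in palate closure, had 632, 538 and 581, a mean of 584 ± 47.1 (SD, n = 3). Tgfb2 (ENSMUSG00000039239; chr1:186354989-186438186, minus strand), which is needed for the formation of heart valves and septa, had 367, 265 and 282, a mean of 305 ± 54.6 (SD, n = 3). Tgfb2 and Tgfb3 were both highest in mouse 1 and lowest in mouse 2. Per kilobase the 3 ranges did not overlap, and the gene without the integrin motif shown above was the lowest in each mouse.

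The surface anchor was the third gene per kilobase, and the microfibril gene stood lower. Lrrc32 (ENSMUSG00000090958; chr7:98138490-98151388, plus strand) had 901, 1082 and 1174, a mean of 1052 ± 139 (SD, n = 3), and ranked 1802. Fbn1 (ENSMUSG00000027204; chr2:125142514-125349913, minus strand), which encodes fibrillin-1 of the microfibrils, had 889, 1073 and 1113, a mean of 1025 ± 119 (SD, n = 3). The means per kilobase were 230.0 for Lrrc32 and 85.4 for Fbn1. In both genes mouse 1 was the lowest and mouse 3 the highest.

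**Figure D1:**
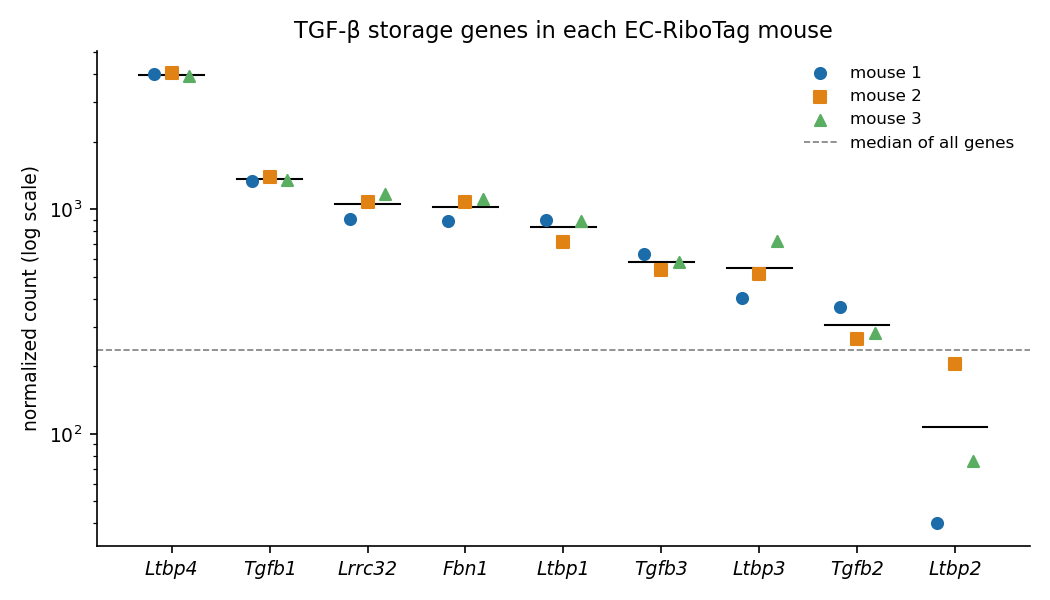
Normalized count (log axis) of the 9 genes in each of the 3 mice, shown as points, with the mean over mice as a line and the median of all genes, 237, as a dashed line. Ltbp4 lies between 3915 and 4033, and all members other than Ltbp2 lie above the dashed line in every mouse.

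In the order per kilobase, Ltbp4 was followed by Tgfb1 with 615 ± 14.0 and Lrrc32 with 230.0 ± 30.4 normalized counts (SD, n = 3). Next came Ltbp1 with 149 ± 18.2, Tgfb3 with 141 ± 11.3, Ltbp3 with 101 ± 29.7, Fbn1 with 85.4 ± 9.95, Tgfb2 with 58.3 ± 10.5 and Ltbp2 with 15.8 ± 12.8 (SD, n = 3). Fbn1, with a canonical transcript of 12004 bases the longest of the 9, stood at place 4 by normalized count and at place 7 per kilobase. Of the 8 neighbouring pairs in the order per kilobase, 6 differed by more than the larger SD, and Ltbp1 with Tgfb3 and Ltbp3 with Fbn1 did not. The ranges of Tgfb3 and Ltbp3 overlapped, although their means differed by more than the larger SD. By the length of all annotated exons, Ltbp4, Tgfb1 and Lrrc32 again led and Ltbp2 was again the lowest, while Tgfb3 and Fbn1 stood above Ltbp1.

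Within each mouse, Ltbp4 exceeded the other binding proteins on the log2 scale per kilobase by 2.50 ± 0.20 for Ltbp1, a 5.66-fold difference, and by 6.05 ± 1.17 for Ltbp2 (SD, n = 3). The log2 ratio of Ltbp4 to Ltbp3 was 3.49, 3.16 and 2.63 in mice 1, 2 and 3 and so narrowed as Ltbp3 stood higher. Ltbp4 exceeded Fbn1 by 3.31 ± 0.18 and Tgfb1 by 0.45 ± 0.02 (SD, n = 3). Each of these log2 ratios was above 0 in 3 of 3 mice, but that of Ltbp4 to Tgfb1 depended strongly on the length used, from 0.14 with the longest protein-coding transcript to 1.55 with no division. The canonical transcript of Ltbp4, 4726 bases, is almost all coding sequence (4674 bases), and the longest protein-coding transcript has 5861 bases. Which transcripts were present was not tested. Tgfb1 exceeded Tgfb3 by 2.13 ± 0.15 and Tgfb2 by 3.41 ± 0.27 on the log2 scale per kilobase (SD, n = 3), and both ratios were above 0 in 3 of 3 mice.

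Expressed as shares per kilobase, Ltbp4 made up 77.7%, 77.1% and 73.2% of the 4 LTBP genes in mice 1, 2 and 3, with a mean of 76.0% ± 2.47 (SD, n = 3). Ltbp1 took 13.5% ± 1.68, Ltbp3 9.10% ± 2.47 and Ltbp2 1.42% ± 1.16 (SD, n = 3). Per kilobase Tgfb1 took 75.6% ± 2.34 of its own family, followed by Tgfb3 with 17.3% ± 1.22 and Tgfb2 with 7.15% ± 1.18 (SD, n = 3). The summed level of the LTBP genes was 1.31, 1.37 and 1.41 times that of the growth factors in mice 1, 2 and 3. Without division by length the ratio was 2.27, 2.48 and 2.53, Ltbp4 made up 72.9% ± 2.58 of the LTBP counts and Tgfb1 60.6% ± 3.12 of the growth factor counts (SD, n = 3). These are ratios of ribosome-associated RNA, not of protein.

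**Figure D2:**
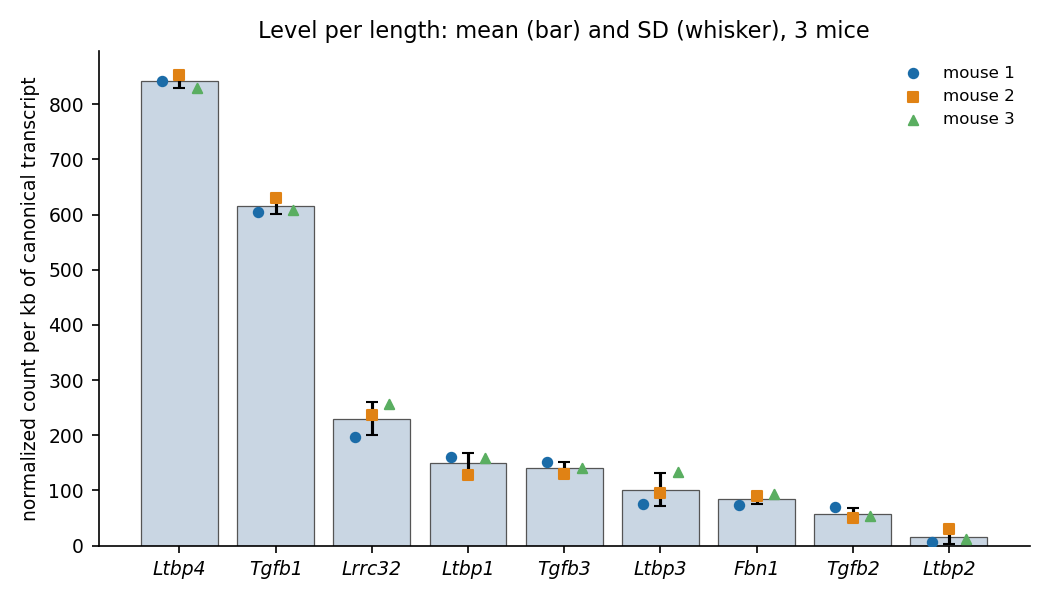
Normalized count per kilobase of canonical transcript for the 9 genes, with bars for the mean over 3 mice, whiskers for the SD and points for single mice, on an axis that starts at 0. Ltbp4 with 842 and Tgfb1 with 615 stand apart from the other 7 genes, which have means of 230.0 or less.

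The spread between mice differed widely among the 9 genes. Ltbp4 had a coefficient of variation of 1.49% and Tgfb1 of 2.28%, against 1.59% and 2.71% that counting of reads alone gives at their levels. Among the 9358 genes whose mean reached 200, the median coefficient was 7.37%, and 2.93% of them had a smaller one than Ltbp4. Both genes are also dense in reads, with 0.842 and 0.615 per base of canonical transcript, and for Ltbp4 this is above the 99th percentile of 0.737. Duplicate reads had been removed, which caps the number of single-end reads that start at a position. Genes whose mean reached 1000 had a median coefficient of 4.85% where they held 0.5 per base or more (319 genes) and of 6.20% where they held less (1705 genes). The part of this cap in the narrow spread of Ltbp4 and Tgfb1 was not tested.

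At the other end, 1 of the 8 members with a mean of at least 200 had a coefficient over 20%, which was Ltbp3 with 29.3%. The same held for 8.00% of all genes at that level, so the members' count is close to the background. Ltbp2, whose mean is below 200, had 81.1% against 9.66% from counting alone. Among the 14441 genes whose mean reached 10, 24.2% had a coefficient over 20% and 0.478% had one above that of Ltbp2. The other 5 members lay between 8.06% for Tgfb3 and 17.9% for Tgfb2.

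**Figure D3:**
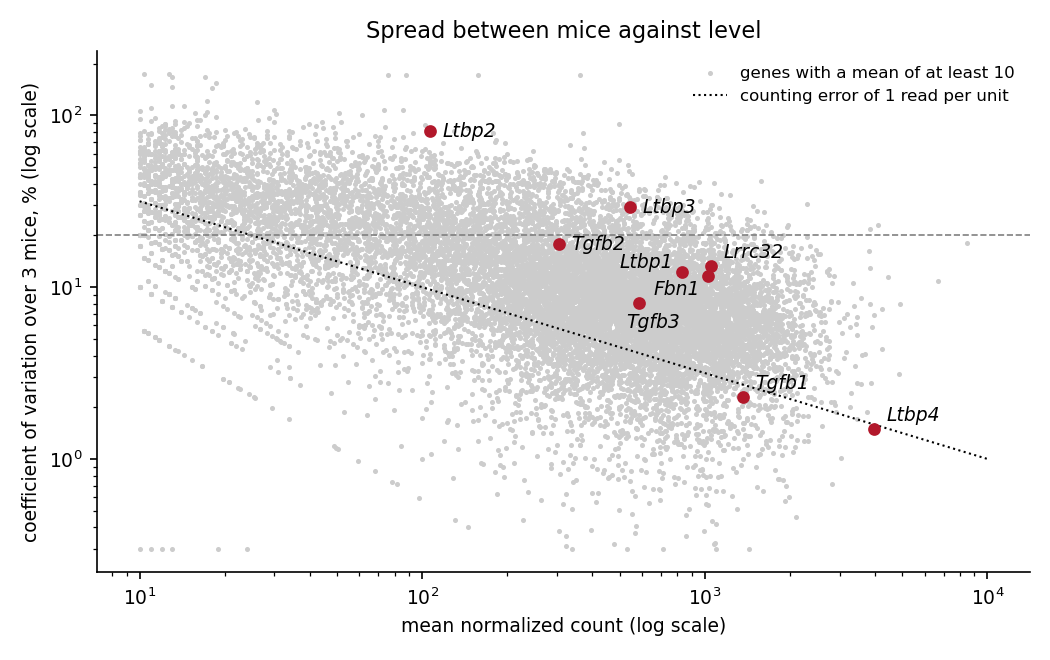
Coefficient of variation over the 3 mice (log axis, in percent) against the mean normalized count (log axis) for genes with a mean of at least 10 in grey and the 9 members in red, with the 20% limit dashed and counting error at 1 read per unit dotted. Ltbp4 and Tgfb1 lie just under the dotted line, and Ltbp2 at 81.1% and Ltbp3 at 29.3% lie above the dashed line.

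The members did not vary across the mice in 1 common way. Lrrc32, Fbn1 and Ltbp3 were lowest in mouse 1 and highest in mouse 3. Relative to the mean log2 level of the gene, Ltbp3 was at -0.39, -0.05 and 0.44 in mice 1, 2 and 3. Ltbp1, Tgfb2 and Tgfb3 were highest in mouse 1 and lowest in mouse 2, with Tgfb2 at 0.28, -0.19 and -0.10. Ltbp2 was lowest in mouse 1 and highest in mouse 2, at -1.09, 1.26 and -0.17. Tgfb1 took the same order as Ltbp2, but its shifts were at most 0.04. Mouse 1 was the lowest in 5 of the 9 members and in 33.9% of the genes whose mean reached 10.

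Markers of other cell types moved with some of these genes. The median log2 shift of the 10 fibroblast genes was -0.27, 0.18 and 0.24 in mice 1, 2 and 3, that of the 10 mural cell genes -0.47, 0.08 and 0.21, and that of the 8 leukocyte genes -0.44, 0.28 and 0.15, whereas that of the 12 endothelial genes was at most 0.04 from 0. The median shift of the 10 cardiomyocyte genes ran the other way, at 0.09, 0.00 and -0.08. These genes were split, since mouse 1 was the lowest in 4 of the 10. Their summed level, 20679, 21339 and 24237 in mice 1, 2 and 3, was lowest in mouse 1. This sum weighs long transcripts most, such as Ttn with 7379, 7743 and 10190 and Ryr2 with 3280, 3667 and 4486. In Pln, Actc1, Mb, Myl2, Myl3 and Tnni3, named like Ryr2 after their values were seen, mouse 1 was the highest. The order of Ltbp2, with mouse 2 highest and mouse 1 lowest, was shared by 5 of 10 fibroblast genes, 2 of 8 leukocyte genes, 1 of 10 mural cell genes, 1 of 10 cardiomyocyte genes and 1 of 12 endothelial genes, and by 16.7% of the genes whose mean reached 10. The 5 fibroblast genes, picked out after their values were seen, were Col1a1, Col1a2, Col3a1, Mfap5 and the scar gene Postn, which had 344, 741 and 671. The rest of the fibroblast list, also named after its values were seen, went other ways. Dcn with 813, 579 and 1007 and Lum with 458, 309 and 618 were lowest in mouse 2, where Ltbp2 was highest. Pdgfra, Dpt and Tcf21 were lowest in mouse 1 and highest in mouse 3. The order of Lrrc32, Fbn1 and Ltbp3, with mouse 3 highest and mouse 1 lowest, was that of 6 of 10 mural cell genes, 4 of 8 leukocyte genes, 3 of 10 fibroblast genes, 3 of 10 cardiomyocyte genes, 2 of 5 endocardial genes, 1 of 12 endothelial genes and 16.5% of the genes whose mean reached 10. The part of RNA from other cells in the levels of Ltbp2, Ltbp3, Fbn1 and Lrrc32 was not tested. The marker lists also differed in read density. Median levels per kilobase were 711 for the endothelial genes and 91.4 for the fibroblast genes. They were 41.8 for the mural cell genes and 25.7 for the leukocyte genes. The part of duplicate removal in the small endothelial shift was not tested.

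**Figure D4:**
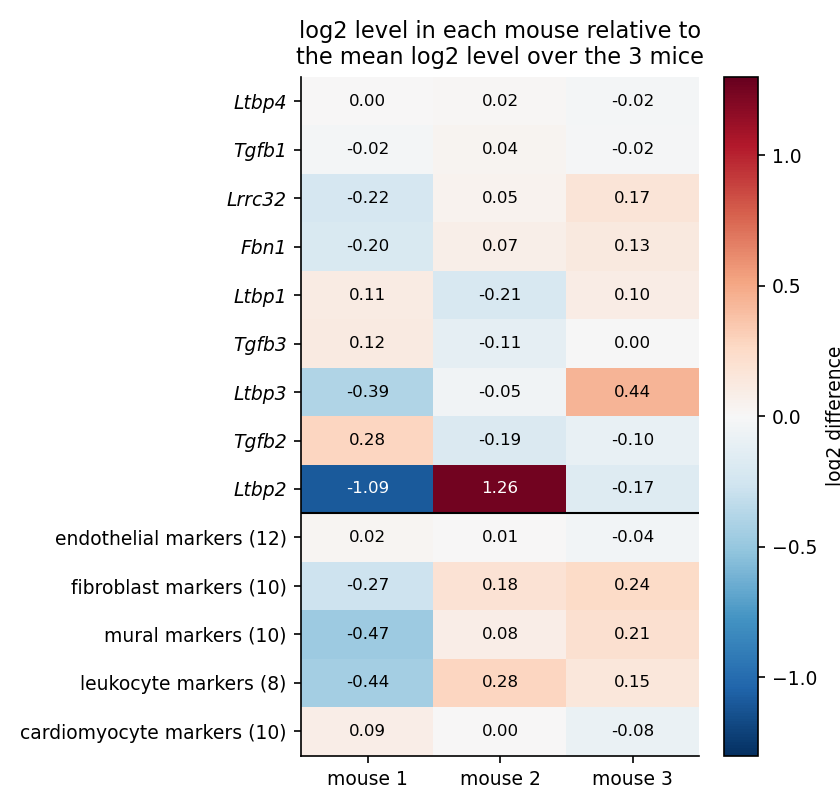
Log2 level in each mouse minus the mean log2 level over the 3 mice, for the 9 members above the line and, below it, the median shift of each marker list. Ltbp2 ranges from -1.09 to 1.26, while Ltbp4, Tgfb1 and the endothelial list stay within 0.04 of 0.

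Genes that process and activate latent TGF-β were mostly present. Of the 22 genes listed, 21 were in the table and Plg, the liver gene for plasminogen, was not. Per kilobase, 13 of the 21 lay above the median of all genes, and the list median was 128 against 73.0 for all genes. The highest by normalized count were the integrin β1 gene Itgb1 with 2433 ± 97.6, the transglutaminase gene Tgm2 with 2119 ± 35.4, the proprotein convertase gene Furin with 1714 ± 70.7 and the plasminogen activator gene Plat with 986 ± 60.1 (SD, n = 3). Per kilobase Tgm2 with 589 stood above Itgb1 with 486. The lowest was the gelatinase gene Mmp9, with 1, 1 and 4 in the 3 mice, no higher than the floor of 4 that every gene in the table reached. The αv integrin chain Itgav and its β partners other than Itgb1 were chosen after their values were seen. Itgav had 299 ± 52.0, Itgb5 801 ± 155, Itgb3 257 ± 94.7, Itgb6 46.3 ± 5.03 and Itgb8 13.3 ± 10.2 normalized counts (SD, n = 3). Nrros, the anchor of latent TGF-β related to Lrrc32 and known from macrophages and microglia, had 443 ± 43.9 (SD, n = 3), also chosen after its values were seen. Per kilobase Lrrc32 had 230.0 and Nrros 116. Thbs1, the gene of the TGF-β activator thrombospondin-1, again chosen after its values were seen, had 184, 622 and 684 and was low in mouse 1. Mouse 1 was the lowest in 14 of the 21 genes, against 33.9% of the genes whose mean reached 10.

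The matrix to which LTBPs attach was more uneven. All 26 listed genes of microfibrils and elastic fibres were found, with Adamtsl6 under its symbol Thsd4. Per kilobase, 12 of the 26 lay above the median of all genes, and the list median of 69.6 was close to the 73.0 of all genes. The highest by normalized count were the perlecan gene Hspg2 with 3837 ± 835, the fibulin gene Fbln2 with 1621 ± 52.2, the elastin gene Eln with 1575 ± 247 and the biglycan gene Bgn with 1388 ± 133 (SD, n = 3). Per kilobase this order was reversed, with 573 for Bgn, 394 for Eln, 339 for Fbln2 and 265 for Hspg2, whose canonical transcript has 14502 bases. The lowest was the lysyl oxidase gene Loxl4 with 31.3 ± 17.5 (SD, n = 3). Fbn2, the fibrillin best known from development and chosen after its values were seen, had 117, 219 and 106, a mean of 13.2 per kilobase against 85.4 for Fbn1. In 20 of the 26 genes mouse 1 was the lowest, against 33.9% of the genes whose mean reached 10. Of the 13 with a mean of at least 200, 5 had a coefficient of variation over 20%, against 8.00% of all genes at that level. Many of these genes are known products of fibroblasts and mural cells too, Dcn and Mfap5 are also in the fibroblast list, and the part of RNA from those cells was not tested.

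Receptor and response genes were high as a group. All 11 were in the table and 10 lay above the median of all genes per kilobase, with a list median of 179. The highest by normalized count were the coreceptor gene Eng with 2824 ± 20.3, the type I receptor gene Acvrl1 with 1810 ± 93.2, the type II receptor gene Tgfbr2 with 1809 ± 196 and the inhibitory Smad7 with 1474 ± 79.4 (SD, n = 3). Per kilobase, Acvrl1 with 837 and Eng with 809 stood beside Ltbp4 with 842. Each of these lies above the 99th percentile of 0.737 per base, and duplicate removal compresses such levels. The value of Ltbp4 also depended on the length used, and was 679 with the longest coding transcript. How alike the RNA levels of these genes are was not tested. Eng is also among the endothelial markers. Smad3 was the lowest by normalized count with 376 ± 61.2 (SD, n = 3).

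**Figure D5:**
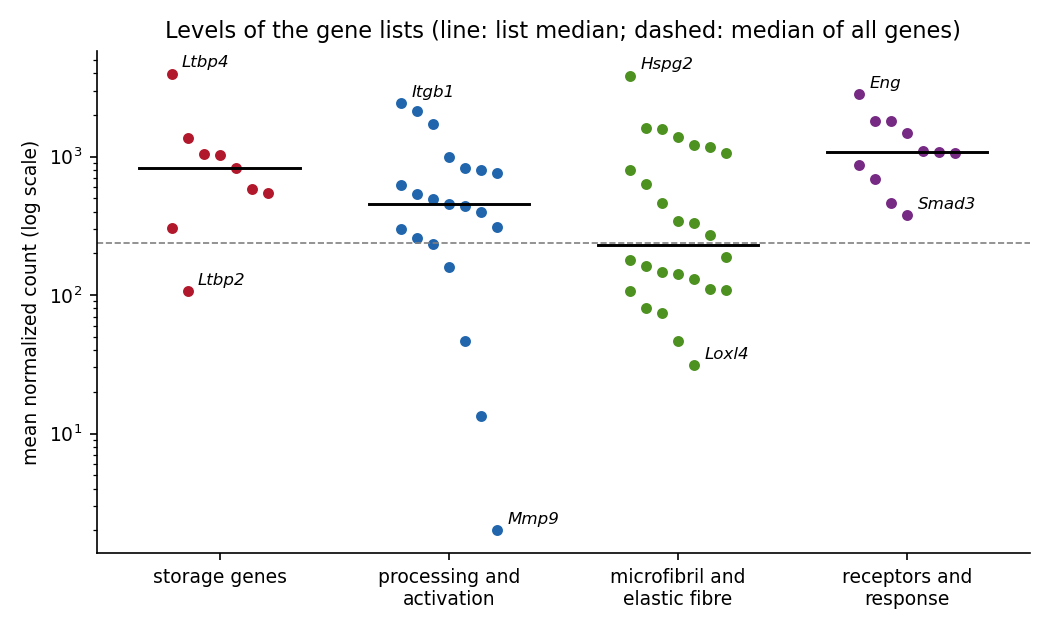
Mean normalized count over 3 mice (log axis) of each gene in 4 lists, with the list median as a line, the median of all genes as a dashed line, and the highest and lowest gene of each list named. The list medians are 832 for the 9 members, 458 for processing and activation, 230.5 for microfibrils and elastic fibres and 1083 for receptors and response.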

How the data were processed

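Ribosome-associated RNA of 3 EC-RiboTag mouse hearts was read as 72-base single ends. The deposited table holds a score per gene and mouse, made when the authors scaled read counts by a size factor of the library and rounded them, and it holds no raw counts. Per the methods and the submitters' processing notes, reads were trimmed with Trimmomatic 0.39 and aligned with STAR 2.7.11a to mm39, duplicates (Picard 3.1.1), multi-mapping, ribosomal and mitochondrial reads were removed, exonic reads on the correct strand that overlapped 1 gene were counted with featureCounts 2.0.4, and counts were normalized with DESeq2 1.36.0. Duplicate removal compresses the levels of genes dense in reads. The depth in reads was estimated from the rounding pattern. It came to about 7321000, 6753000 and 7564000 reads on genes in mice 1, 2 and 3, and counting error at the members' means ran from 1.59% to 9.66%.

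The libraries are called biological replicates in the labels. The 9 genes and all gene lists were chosen with earlier results of these data known. Levels are means and SDs over mice; log2 ratios used a pseudocount of 0.5. With 1 condition, no test between groups was made. The genes named are the 9 members, the 4 highest, the lowest and the absent genes of each pathway list, the highest and lowest genes of the endothelial, cardiomyocyte, fibroblast, mural cell, leukocyte and endocardial lists, and the 3 genes most like Ltbp4. Others are said to be chosen after their values were seen. A response gene counted in its list is not reported here by itself.

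Gene coordinates are those of the deposited table. Lengths and sequences come from GENCODE M39 on GRCm39, in which 17475 of 17583 identifiers (99.39%) were found. This annotation is newer than the one the authors used. No gene on the same strand overlaps the canonical exons of a member, and no window of 72 bases of a member's canonical transcript has an exact copy elsewhere in the genome. Python 3.11.15, numpy 2.4.6, pandas 2.3.3, Biopython 1.88 and matplotlib 3.10.9 were used, and the scaling, spread and depth estimates were tested on simulated data. Alternatives were scaling to equal totals, scaling by trimmed means (30% of log ratios and 5% of levels at each end), other lengths, a pseudocount of 5, a minimum mean of 10, the median over mice and leaving out each mouse.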

Additional observations from a re-analysis of the deposited data

How the results depend on the processing

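Scaling to equal totals or by trimmed means left every mean of the 9 genes within its SD, and no log2 ratio changed sign under any alternative run. The log2 ratio of Ltbp4 to Ltbp2 ranged from 5.50 to 6.67 with a mouse left out and from 5.53 to 5.74 with other lengths or no division. Ltbp4 ranked 35 per canonical length, 62 per length of all exons and 66 per longest coding transcript, a length added after seeing the data, and 8 to 14 with a mouse left out. Per length of all exons the log2 ratio was 2.77 for Ltbp4 to Ltbp1, 2.65 for Ltbp4 to Fbn1, 2.47 for Tgfb1 to Tgfb2, 1.26 for Tgfb1 to Tgfb3 and 0.98 for Ltbp4 to Tgfb1. With no division the same ratios were 2.26, 1.96, 2.17, 1.22 and 1.55. With the longest coding transcript the ratio to Fbn1 was 3.00 and that of Ltbp4 to Tgfb1 0.14. Members among the first 1000 of 17583 genes numbered 2, and 1 to 2 with a mouse left out. They were Ltbp4, by whose level the set was chosen, and Tgfb1, which ranked 953 and left them without mouse 2. With a minimum mean of 10, Ltbp2 joined Ltbp3 and 2 members had a coefficient of variation over 20%. A pseudocount of 5 moved no ratio by more than its SD. Without mouse 2 the mean of Ltbp2 was 58.0, and without mouse 1 it was 140.5. No paired analysis was possible because all samples belong to 1 group. With 3 mice a coefficient of variation is itself imprecise, and levels near 1 read per base are limited by duplicate removal.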

Other observations

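Storage genes and growth factor genes lie near each other on 2 chromosomes. Ltbp4 and Tgfb1, the highest genes of their families, are 1.60 megabases apart on chromosome 7, with 12 genes of the table between them. Ltbp2 and Tgfb3 are 1.18 megabases apart on chromosome 12, with 20 genes of the table between them. Neither pair followed the same order over the mice. Ltbp4 and Tgfb1, in which the mice were nearly equal, were both highest in mouse 2. The lowest was mouse 3 in Ltbp4 and mouse 1 in Tgfb1. In the pair on chromosome 12, Ltbp2 was highest and Tgfb3 lowest in mouse 2.

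All 5 endocardial markers lay above the median of all genes. The highest was Cgnl1 with 1968 ± 451 and the lowest Cytl1 with 531 ± 97.2 (SD, n = 3). The summed level was 5988, 5239 and 7923 in mice 1, 2 and 3, and mouse 3 was the highest.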
